A study of Homo sapiens with 12 samples.

Results

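AP-1 is a transcription factor built as a dimer of proteins that pair through a leucine zipper. The genes described here encode 8 of its subunits, the FOS family (FOS, FOSB, FOSL1 and FOSL2), the JUN family (JUN, JUNB and JUND) and ATF3. They were taken by name from the 60669 Ensembl identifiers of each count table, and all 8 were among the 16695 genes that passed the filter on low counts. The cells were PANC-1, an established line from a human pancreatic ductal adenocarcinoma, kept for 72 h after transfection of either control siRNA or siRNA against SIK3, which encodes a salt-inducible kinase. They were then left unstimulated or received TNF-α, an inflammatory cytokine, at 100 ng/mL, and were harvested in trypsin 30 min or 4 h later. Both siRNA arms were therefore transfected, every value comes from a single cell line, and the 6 conditions have 2 biological replicates each, 12 libraries in all.

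The conditions used below are those of the words in the submitters' file names, and the sample titles go against these words in 8 of the 12 libraries. A title of SIK3 siRNA without TNF stands on the libraries named control siRNA with TNF 30 min, and a title of control siRNA with TNF 30 min on those named control siRNA with TNF 4 h. The title SIK3 siRNA with TNF 30 min belongs to libraries named SIK3 siRNA without TNF, and the title control siRNA with TNF 4 h to libraries named SIK3 siRNA with TNF 30 min. Titles and file names match for control siRNA without TNF and for SIK3 siRNA with TNF 4 h. The file-name word for no TNF is an abbreviation that no label explains, read so because the other words name both TNF times, and the titles call the target AS1 where the transfection label says SIK3. Levels of SIK3 itself, in CPM (counts per 1000000 of the library's TMM-scaled size), lay at 34.3 to 68.7 in the 6 libraries named control and at 16.3 to 24.0 in the 6 named SIK3 siRNA. These ranges do not overlap, and the mean was 2.45-fold lower with SIK3 siRNA (exact permutation test, 2-sided, p = 0.0021645, the smallest that 924 splits allow). Sorted by title instead, the same libraries gave a SIK3 difference of −0.35 on the log2 scale (exact permutation test, p = 0.431).

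Gene counts ranged from 13535825 to 22699756 per library. Reads that mapped to several places made up 4.94 to 17.6% of replicate 1 libraries and 10.2 to 45.3% of replicate 2 libraries. Reads that overlapped no annotated exon were most common in both libraries of SIK3 siRNA and TNF 4 h (16.5 and 17.1%), the remaining 10 having 8.35 to 10.5%. Their part in any result of that condition was not tested. Of 6 epithelial markers, the keratin genes KRT8 (2648 to 3541 CPM), KRT18 (1710 to 2184) and KRT19 (717 to 1267) were abundant in every library. CDH1 at 28.1 to 86.9 CPM and EPCAM at 31.0 to 55.0 CPM were lower, and KRT7 reached only 5.91 to 11.7 CPM. The mesenchymal marker VIM was also abundant, at 1353 to 3998 CPM. The leukocyte markers PTPRC, CD3E and CD14 summed to 0.0418 to 0.658 CPM and the endothelial markers PECAM1, CDH5 and VWF to 0.268 to 1.16 CPM. Of the fibroblast markers, COL1A1 reached 15.4 CPM, PDGFRB 1.18 CPM and COL1A2 0.0664 CPM.

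FOS proteins cannot pair with each other and need a JUN partner, while JUN proteins also pair among themselves and with ATF3. FOS, FOSB, JUNB and ATF3 are known as immediate early genes: signals through the MAP kinases JNK, p38 and ERK raise their transcription within minutes without new protein synthesis, and FOS mRNA is short-lived. FOSL1 and FOSL2 are known to appear later and last longer, and JUND is usually described as steadily expressed. TNF is a classical activator of JNK, which phosphorylates JUN, so AP-1 is a standard readout of TNF stimulation beside NF-κB.

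Upstream sequences of 6 members are shown so that their short motifs can be read side by side. The sequences are from the RefSeq promoter table (build GRCh38.p14), which held 7 of the 8 genes by symbol, FOSL1 being the one not matched. Each is printed 5′ to 3′ on the gene's strand, in lower case, with capitals for the motifs TGACGTCA and its part TGACG (the cyclic AMP response element), TGACATCA (a variant known to bind dimers of JUN and ATF2), CCAAT and TATAAA. Bases inside an annotated GENCODE exon of the gene were left off, except for JUN, where the 30 bases around TGACATCA are given although they lie inside the gene's annotated exon. The FOSL2 window starts inside the annotated gene and is described by its motifs alone.
FOS, chr14:75278578-75278773, plus strand: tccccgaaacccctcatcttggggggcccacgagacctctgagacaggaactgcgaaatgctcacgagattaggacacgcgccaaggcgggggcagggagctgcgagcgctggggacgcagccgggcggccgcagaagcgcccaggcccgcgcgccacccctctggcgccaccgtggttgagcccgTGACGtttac
FOSB, chr19:45467746-45467994, plus strand: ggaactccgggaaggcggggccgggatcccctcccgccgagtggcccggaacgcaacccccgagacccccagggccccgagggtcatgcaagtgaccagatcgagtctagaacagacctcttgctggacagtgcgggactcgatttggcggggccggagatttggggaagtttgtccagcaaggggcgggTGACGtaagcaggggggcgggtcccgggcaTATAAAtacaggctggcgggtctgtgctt
JUN, chr1:58784096-58784125, minus strand: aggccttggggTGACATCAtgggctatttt
JUNB, chr19:12791236-12791485, plus strand: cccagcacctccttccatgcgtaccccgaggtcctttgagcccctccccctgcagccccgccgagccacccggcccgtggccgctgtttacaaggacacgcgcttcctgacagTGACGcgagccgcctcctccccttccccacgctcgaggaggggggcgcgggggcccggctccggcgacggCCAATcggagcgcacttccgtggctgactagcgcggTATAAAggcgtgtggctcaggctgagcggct
JUND, chr19:18281623-18281872, minus strand: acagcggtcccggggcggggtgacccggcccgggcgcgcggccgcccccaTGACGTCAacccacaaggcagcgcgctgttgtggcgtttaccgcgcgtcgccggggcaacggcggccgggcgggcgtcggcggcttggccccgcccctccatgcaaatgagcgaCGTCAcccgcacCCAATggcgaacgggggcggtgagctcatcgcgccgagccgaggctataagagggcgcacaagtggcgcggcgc
ATF3, chr1:212565157-212565333, plus strand: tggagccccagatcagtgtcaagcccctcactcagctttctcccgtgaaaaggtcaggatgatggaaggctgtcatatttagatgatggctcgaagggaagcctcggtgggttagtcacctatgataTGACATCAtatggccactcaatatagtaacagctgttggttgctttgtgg

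Motifs were searched on both strands in the 250 bases before each RefSeq start, and their share among all 35116 promoters of the table was counted the same way. TGACG lay in 6 of the 7 genes and in 21.2% of all promoters, with its first base 64 bases before the start in FOS, 60 in FOSB, 66 in FOSL2, 123 in JUN and 137 in JUNB. JUND carried the full palindrome TGACGTCA 200 bases before its start, a motif of 1.65% of promoters that contains TGACG on both strands. A separate TGACG on the opposite strand, printed as the capitals CGTCA, lay 86 bases before the JUND start. FOSL2 also had TGACG on the opposite strand, 201 bases before its start. TGACATCA lay 67 bases before the start of JUN and 123 before the first of the 2 ATF3 starts, and in 2.37% of promoters. TATAAA was present in FOS (33 bases before the start, beyond the stretch printed), FOSB (30), JUNB (31) and the second ATF3 start (230), and in 10.7% of promoters. CCAAT was found in JUN, JUNB, JUND and ATF3 and in 32.0% of promoters. TGANTCA, which includes the AP-1 site TGACTCA, a CArG box and an NF-κB site were not found in these windows of the 7 genes. Across all promoters these 3 were present in 6.57, 1.16 and 9.96%. A match here is a string of letters and shows no binding.

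In GENCODE 29, FOS (ENSG00000170345) lies on chromosome 14 at 75278774 to 75282230, FOSB (ENSG00000125740) on chromosome 19 at 45467995 to 45475179, FOSL1 (ENSG00000175592) on chromosome 11 at 65892049 to 65900573 and FOSL2 (ENSG00000075426) on chromosome 2 at 28392448 to 28417312. JUN (ENSG00000177606) lies on chromosome 1 at 58780788 to 58784327, JUNB (ENSG00000171223) on chromosome 19 at 12791496 to 12793315, JUND (ENSG00000130522) on chromosome 19 at 18279760 to 18281622 and ATF3 (ENSG00000162772) on chromosome 1 at 212565334 to 212620777. JUNB shares 259 of its 1820 exon bases with HOOK2 on the opposite strand, and since the strand setting of the counting is not stated, reads there cannot be told apart. HOOK2 held 1409 counts over all libraries against 10622 for JUNB. ATTTA pentamers, the core of AU-rich elements that shorten mRNA life, occurred 5 times in the 806 bases of the longest FOS 3′ untranslated region, or 6.20 per kb. Of 12870 tested genes, 4.44% were at least as dense in this pentamer. JUNB followed with 2 in 500 bases (4.0 per kb), and the other 6 genes had 1.19 to 2.45 per kb, around the median of 1.68 over these genes.

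Per kb of exon, JUN was the most abundant of the 8 genes, with a median of 102 CPM per kb over the 12 libraries. FOSL1 followed at 81.8, ATF3 at 33.3, JUNB at 30.0, FOSL2 at 24.8, JUND at 18.8, FOS at 9.19 and FOSB at 6.74 CPM per kb. The neighbours in this order overlap in their ranges over libraries, for example JUN with 50.2 to 140 and FOSL1 with 31.2 to 184 CPM per kb. Summed over the 8 genes, the level was lowest in control siRNA without TNF, at 158 and 248 CPM per kb in replicates 1 and 2. It was highest in SIK3 siRNA with TNF 4 h, at 318 and 461 CPM per kb, although replicate 1 of control siRNA with TNF 30 min also reached 318. The JUN family made up 52.0 and 30.8% of the sum in control siRNA without TNF and 62.5 and 46.7% after TNF 30 min. JUND alone made up 3.05 to 5.89% of the sum in control siRNA and 6.40 to 11.1% in SIK3 siRNA libraries, ranges that do not overlap.

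**Figure D1:**
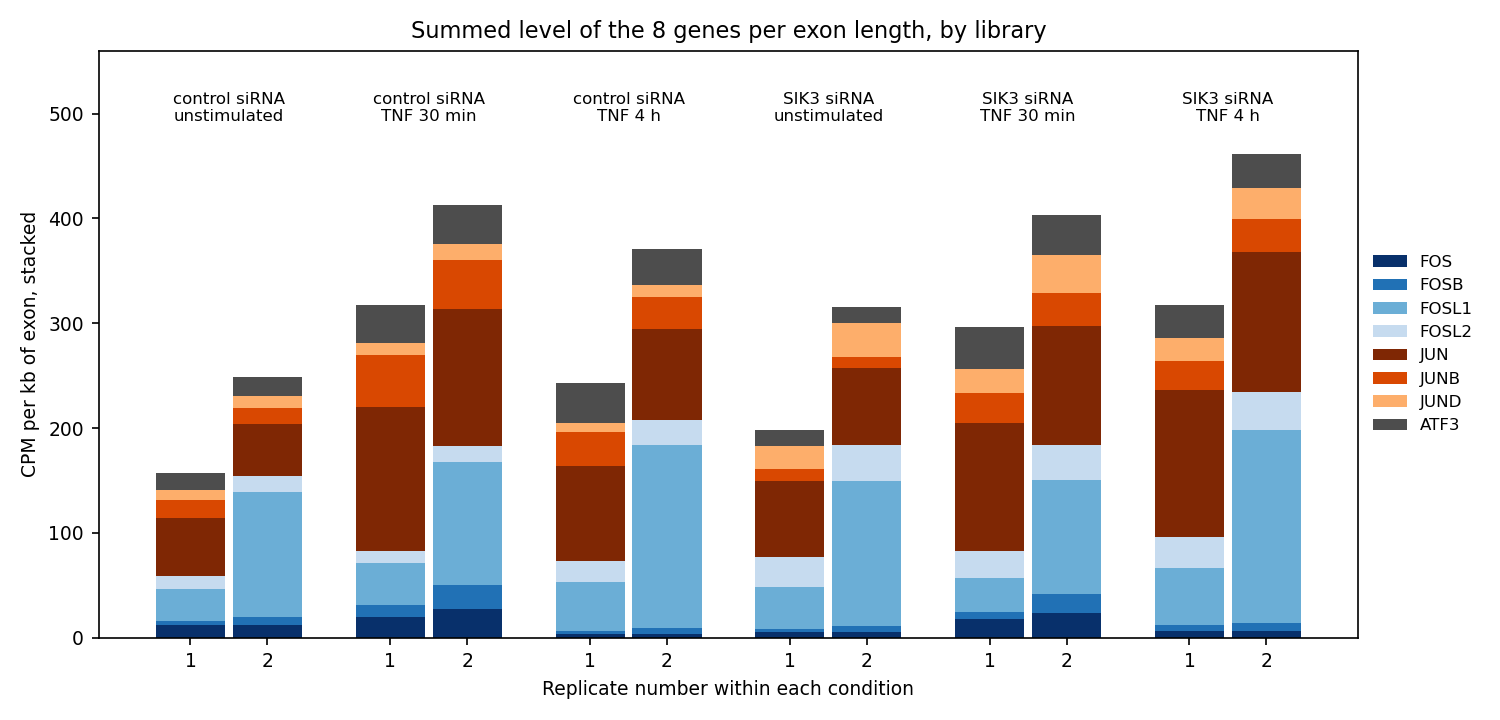
Stacked bars give the level of each of the 8 genes in CPM per kb of exon, 1 bar per library, with replicates 1 and 2 side by side within the 6 conditions named by file name. FOSL1 takes a larger part of every replicate 2 bar, and the bars of control siRNA without TNF are the shortest for each replicate number.

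Replicates differed for some members far more than for others. FOSL1 was higher in replicate 2 in 6 of 6 conditions, by 2.93- to 3.83-fold (median 3.44), and its levels were 58.8 to 103 CPM in the replicate 1 libraries and 206 to 347 CPM in the replicate 2 libraries. This median gap exceeded that of 99.7% of tested genes. FOSB was 1.42- to 2.37-fold higher in replicate 2 (median 1.99-fold, above 97.9% of tested genes), JUND 1.18- to 1.60-fold and FOSL2 1.18- to 1.33-fold, each in 6 of 6 conditions. For FOS, JUN, JUNB and ATF3 the median ratio of replicate 2 to replicate 1 was 1.02, 0.952, 0.951 and 0.984. The FOS ratio ran from 0.983 to 1.39, and at TNF 30 min it was 1.39 with control siRNA and 1.36 with SIK3 siRNA. The share of multimapping reads was higher in replicate 2 of every condition, and its part in these gaps was not tested. Values are therefore given for both libraries, and the test that keeps the replicate number as a block is printed where it changes a call.

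**Figure D2:**
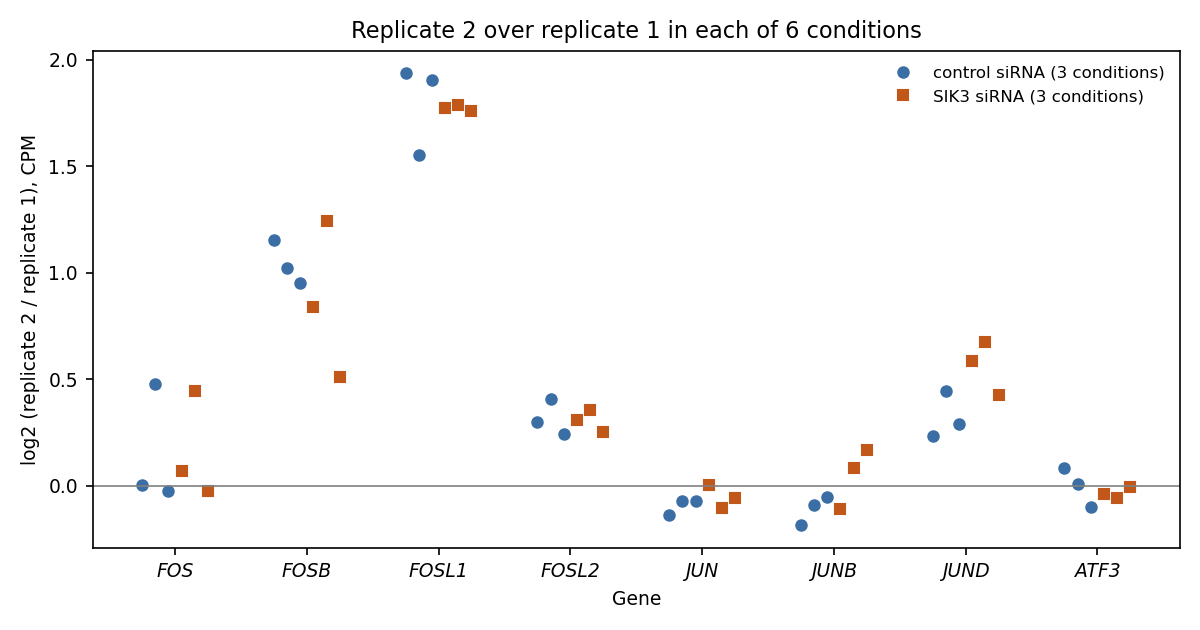
Each point is the log2 ratio of replicate 2 to replicate 1 in CPM for 1 gene in 1 of the 6 conditions, circles for control siRNA and squares for SIK3 siRNA. All 6 points of FOSL1 lie at 1.55 or above, those of FOSB between 0.51 and 1.24, and those of JUN, JUNB and ATF3 near 0.

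With control siRNA, the first comparison asked how the genes stood 30 min after TNF. JUN, JUNB and ATF3 rose 2.10- to 2.92-fold, FOS and FOSB had higher values in both replicates without passing the test, and FOSL1, FOSL2 and JUND did not pass. Of the 8 genes 3 were called, each of them higher, while over all 16695 tested genes 45 (0.27%) were called higher and 4 (0.024%) lower at an adjusted p under 0.05. Folds are from an edgeR quasi-likelihood fit of all 12 libraries, adjusted over all tested genes by Benjamini-Hochberg, and SE is on the log2 scale.

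JUN, the partner that FOS proteins need, was at 196 and 178 CPM without TNF (replicates 1 and 2) and at 487 and 463 CPM after 30 min. Both stimulated libraries lay above both unstimulated ones, and the rise was 2.55-fold (SE 0.08, adjusted p = 0.000183). JUNB, which can restrain or replace JUN in the dimer, went from 31.7 and 27.9 to 89.8 and 84.4 CPM, a 2.92-fold rise (SE 0.11, adjusted p = 0.000292). ATF3, a stress-induced member that can repress as well as activate, went from 68.7 and 72.8 to 148 and 149 CPM, a 2.10-fold rise (SE 0.08, adjusted p = 0.000349). The groups of these 3 genes do not overlap, and each kept its call when any 1 of the 4 libraries was left out. Fitted on the 4 libraries of this comparison alone, ATF3 had the same direction but an adjusted p of 0.084 (2.07e-22 to 0.084 over the 7 alternatives that keep all libraries of the comparison).

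FOS was at 38.9 and 38.95 CPM without TNF and at 63.8 and 88.8 CPM after 30 min. Its fold of 1.96 (SE 0.17) missed the threshold with an adjusted p of 0.078, and passed with the replicate block (adjusted p = 2.51e-06) and when replicate 1 of control siRNA with TNF 30 min was left out (adjusted p = 0.0446). Over the 7 alternatives that keep all libraries, its adjusted p ran from 1.24e-06 to 0.676. FOSB, a close relative of FOS, was at 20.5 and 45.5 CPM without TNF and at 63.1 and 128 CPM after it. The rise was 3.09-fold within replicate 1 and 2.83-fold within replicate 2, but the spread between replicates left an adjusted p of 0.886 without the block, against 3.78e-09 with it. JUND was at 17.3 and 20.4 CPM before and 21.4 and 29.2 CPM after TNF (1.35-fold, adjusted p = 1, or 0.0266 with the block). With the block, 6 members passed, each higher, against 1.81% of tested genes higher and 0.964% lower.

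FOSL2, with 84.5 and 104 CPM without TNF, held 81.9 and 109 CPM after 30 min. The difference was 0.01 on the log2 scale with a 95% interval of −0.41 to 0.44. FOSL1 had 58.8 and 225 CPM without TNF and 75.6 and 221 CPM after it, and its 2 replicates moved in opposite directions. Its 95% interval, −2.13 to 2.26, leaves a wide range of changes open to either side.

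**Figure D3:**
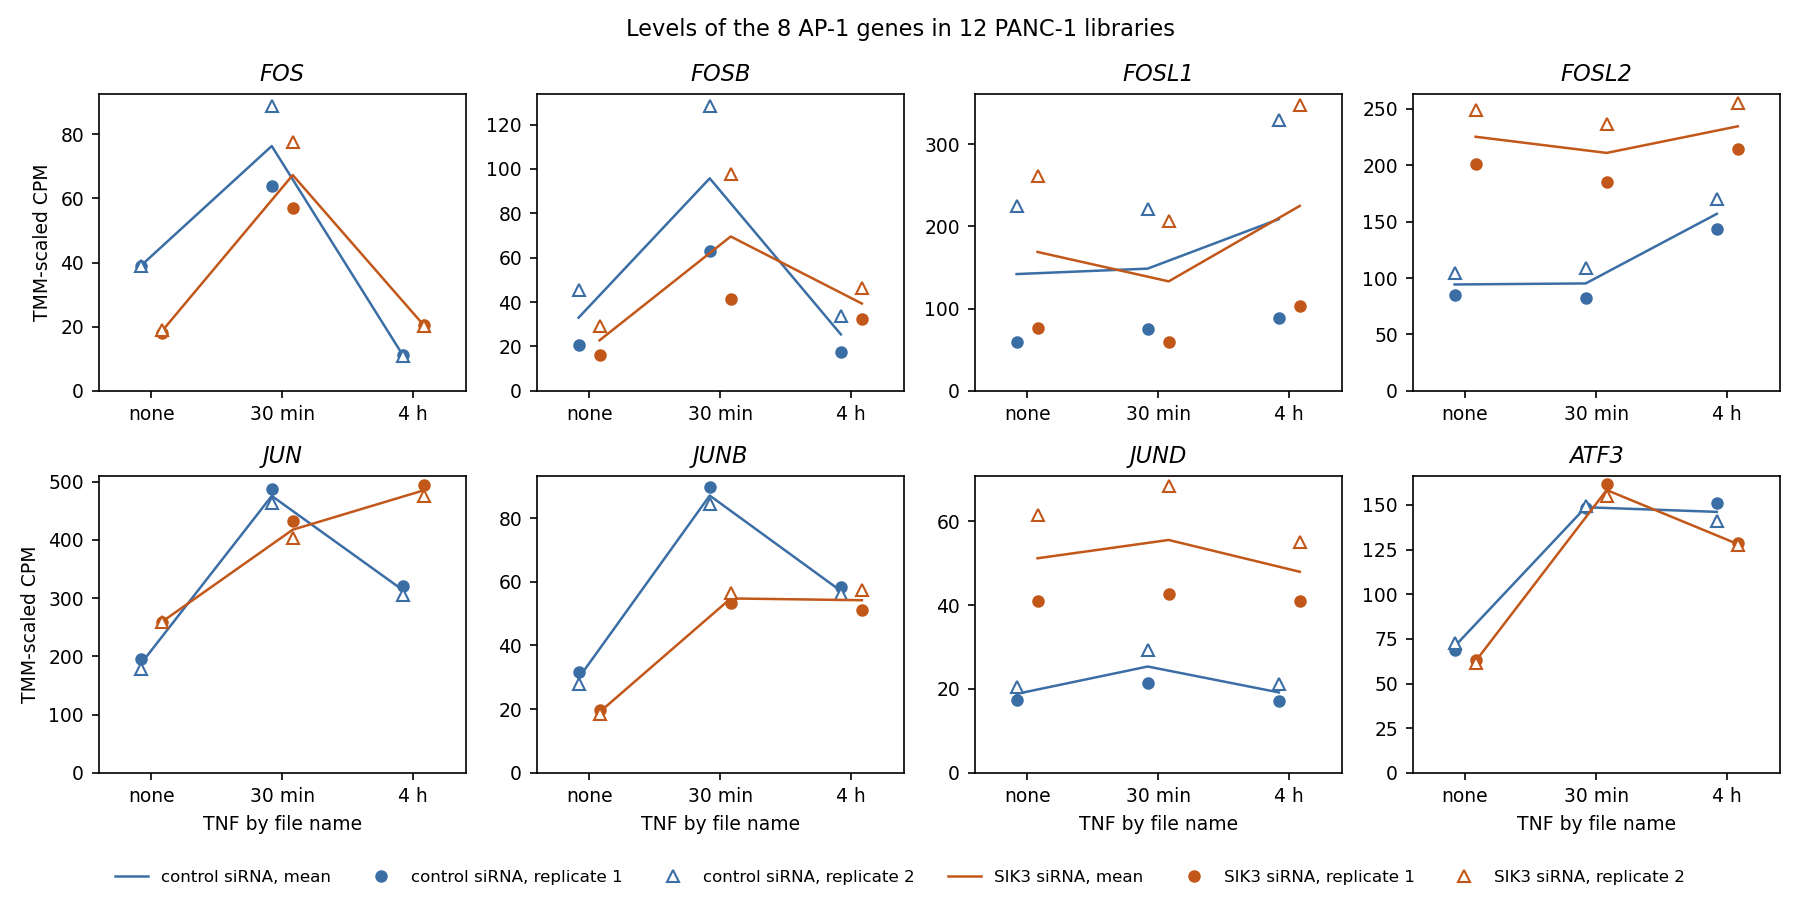
Each panel shows 1 gene, with TMM-scaled CPM on a linear axis from 0 against TNF time by file name. Circles are replicate 1, triangles replicate 2, lines join means of 2 libraries, blue is control siRNA and orange SIK3 siRNA. FOS and FOSB peak at 30 min in both arms, and JUND and FOSL2 of both SIK3 siRNA libraries stand above control at each time.

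At 4 h with control siRNA the genes had separated. FOS was 3.51-fold below its unstimulated level, ATF3, JUNB and JUN were still 1.68- to 2.07-fold above theirs, and FOSL2, flat at 30 min, was 1.66-fold higher. Of the 8 genes 4 were called higher and 1 lower against unstimulated cells, and 923 (5.53%) and 578 (3.46%) of all tested genes. Against 30 min, 1 member was higher and 3 were lower, with 6.18% of tested genes higher and 4.92% lower.

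FOS held 11.2 and 10.99 CPM at 4 h, lower than in any other condition. It fell by 1.81 on the log2 scale against unstimulated cells (SE 0.18, adjusted p = 0.000194) and differed by −2.78 from 30 min (SE 0.19, adjusted p = 1.39e-05). The fall from 30 min was 5.72-fold within replicate 1 and 8.08-fold within replicate 2. FOSB was at 17.3 and 33.5 CPM and fell in both replicates from 30 min, 3.65- and 3.83-fold, with an adjusted p of 0.0627 without the block and 2.17e-11 with it. It also passed with library totals (0.0483) and by DESeq2's Wald test (0.04), and the 7 alternatives that keep all libraries gave 3.03e-30 to 0.08. Against unstimulated cells its groups overlap (log2 difference −0.38, 95% interval −1.64 to 0.89, adjusted p 0.858, or 0.0477 with the block).

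JUN at 4 h held 321 and 306 CPM, between its unstimulated and its 30 min levels with no overlap on either side. It remained 1.68-fold above unstimulated cells (SE 0.08, adjusted p = 0.000343) and was 1.52-fold below 30 min (adjusted p = 0.00122). JUNB followed the same order with 58.2 and 56.1 CPM, 1.92-fold above unstimulated cells (SE 0.10, adjusted p = 0.000358) and 1.52-fold below 30 min (adjusted p = 0.0041). ATF3 stayed at 151 and 141 CPM, 2.07-fold above unstimulated cells (SE 0.08, adjusted p = 3.69e-05). Its difference between 4 h and 30 min was −0.03 on the log2 scale, with a 95% interval of −0.20 to 0.15.

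FOSL2, a FOS relative of the later response, reached 144 and 170.1 CPM at 4 h, above both the unstimulated and the 30 min libraries. It was 1.66-fold above unstimulated cells (SE 0.19, adjusted p = 0.0432) and 1.65-fold above 30 min (adjusted p = 0.0401), calls near the threshold. The first was lost without control siRNA unstimulated replicate 1 or 2 or TNF 4 h replicate 1 or 2 (adjusted p 0.0788 to 0.26), and also with library totals as scaling (adjusted p = 0.0522) or only the libraries compared (0.0936). The second was lost without control siRNA TNF 30 min replicate 1 or TNF 4 h replicate 1 or 2 (adjusted p 0.0825 to 0.285), and with only the libraries compared (0.0856). With the replicate block the FOSL2 adjusted p was 9.07e-10 against unstimulated cells and 8.84e-10 against 30 min. FOSL1 reached 88.0 and 329 CPM, 1.50- and 1.46-fold above unstimulated cells within replicates 1 and 2, with an adjusted p of 0.888 without the block and 1.86e-06 with it. JUND was at 17.2 and 21.1 CPM, a difference of 0.03 on the log2 scale (95% interval −0.62 to 0.67) from unstimulated cells. Against 30 min, FOSL1 was higher (0.49 on the log2 scale, adjusted p 0.881, or 9.14e-05 with the block) and JUND lower (−0.41, adjusted p 0.5, or 0.00577 with the block). With the block, 5 members passed higher and 2 lower against unstimulated cells (11.3 and 12.2% of tested genes), and 2 higher and 5 lower against 30 min (12.8 and 15.3%).

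With SIK3 siRNA, TNF for 30 min was followed by higher FOS, JUNB, ATF3 and JUN. Of the 8 genes 4 were called, each higher, against 0.138% of tested genes higher and 0.012% lower. FOS went from 18.0 and 18.9 to 57.0 and 77.6 CPM, a 3.65-fold rise (SE 0.18, adjusted p = 0.00327). JUNB rose 2.87-fold from 19.8 and 18.4 to 53.2 and 56.3 CPM (SE 0.11, adjusted p = 0.000555). ATF3 rose 2.53-fold from 63.3 and 61.6 to 161 and 155 CPM (SE 0.08, adjusted p = 0.00039). JUN rose 1.61-fold from 258 and 259 to 432 and 402 CPM (SE 0.08, adjusted p = 0.0136), and none of these 4 genes had overlapping groups.

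The FOS call at 30 min was lost without SIK3 siRNA unstimulated replicate 1 (adjusted p = 0.0982) or replicate 2 (0.0602), with folds on the log2 scale of 1.83 and 1.90. JUN lost its call without any 1 of the 4 libraries, SIK3 siRNA unstimulated or TNF 30 min, replicate 1 or 2 (log2 0.64 to 0.74, adjusted p 0.0614 to 0.218). Fitted on the 4 libraries of the comparison alone, FOS, JUN, JUNB and ATF3 had adjusted p from 0.13 to 0.758, while 0 genes of the whole table were called at that setting. FOSB went from 16.3 and 29.2 to 41.3 and 97.8 CPM without overlap (3.08-fold, adjusted p = 0.84, or 9.92e-09 with the block). FOSL1, FOSL2 and JUND had log2 differences of −0.34, −0.09 and 0.12, with 95% intervals of −2.54 to 1.85, −0.52 to 0.33 and −0.49 to 0.73. With the block FOSL1 was lower (adjusted p = 0.005, 1.28- and 1.27-fold within replicates 1 and 2), so that 5 members were higher and 1 lower, against 1.67 and 1.7% of tested genes.

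At 4 h with SIK3 siRNA, JUNB, ATF3 and JUN were above unstimulated cells and FOS was back near its own unstimulated level. Of the 8 genes 3 were called, each higher, against 3.65% of tested genes higher and 0.767% lower. JUN stood at 494 and 476 CPM, 1.87-fold above unstimulated cells (SE 0.08, adjusted p = 0.000518), and JUNB at 51.1 and 57.3 CPM, 2.84-fold above them (SE 0.11, adjusted p = 0.000108). ATF3 held 128 and 128 CPM, 2.05-fold above unstimulated cells (SE 0.08, adjusted p = 0.000186). FOS held 20.6 and 20.2 CPM, a difference of 0.15 on the log2 scale from unstimulated cells (95% interval −0.25 to 0.54, adjusted p = 0.813).

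Between 30 min and 4 h with SIK3 siRNA, 2 members were lower, FOS and ATF3, against 4.94% of tested genes higher and 2.14% lower. FOS fell by 1.72 on the log2 scale (SE 0.18, adjusted p = 0.000541), 2.77-fold within replicate 1 and 3.83-fold within replicate 2. ATF3 fell by 0.31 (SE 0.08, adjusted p = 0.0491), a call lost without any 1 of the 4 libraries of the comparison, SIK3 siRNA TNF 30 min or TNF 4 h, replicate 1 or 2 (adjusted p 0.138 to 0.235). JUNB differed by −0.01 (95% interval −0.25 to 0.22) and JUN by 0.22 (0.03 to 0.40, adjusted p = 0.17, or 0.00184 with the block). FOSB was at 32.5 and 46.2 CPM at 4 h, 1.99- and 1.58-fold above unstimulated cells within replicates 1 and 2 (adjusted p = 0.573, or 4.06e-05 with the block). FOSL1 was at 103 and 347 CPM, 1.34- and 1.33-fold above unstimulated cells within replicates (adjusted p = 0.92, or 0.000119 with the block). FOSL2, at 214 and 255 CPM, and JUND, at 40.9 and 54.96 CPM, differed from unstimulated cells by 0.06 and −0.09 on the log2 scale (95% intervals −0.37 to 0.48 and −0.70 to 0.53). Between 30 min and 4 h, FOSB differed by −0.82, FOSL1 by 0.76 and FOSL2 by 0.15 on the log2 scale. With the filter on low counts and without the block none of them was called (adjusted p 0.479, 0.771 and 0.757). All were called with the block (2.35e-05, 3.01e-08 and 0.0308). Without the filter and without the block, edgeR called FOSB (5.45e-06) and FOSL1 (3.51e-06). JUND differed by −0.21 (adjusted p = 0.771) and was not called with the block either (0.0836). With the block 5 members were called at 4 h against unstimulated cells, each higher (12.5% of tested genes were higher and 9.36% lower). Against 30 min it called 3 higher and 3 lower (14.8 and 13.0%).

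**Figure D4:**
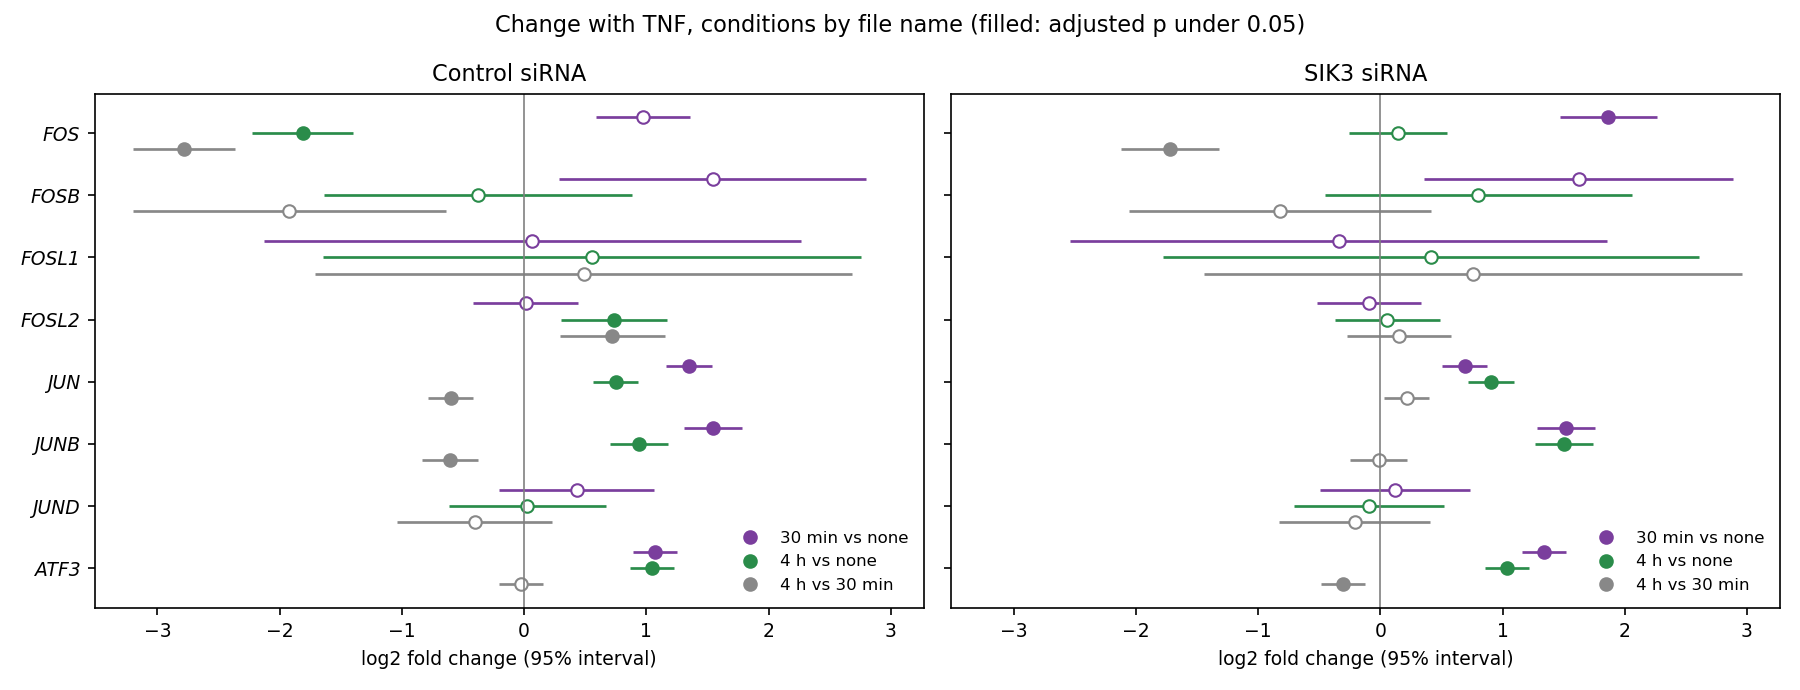
Points are log2 fold changes with 95% intervals for each gene, control siRNA on the left and SIK3 siRNA on the right, for 30 min against no TNF (purple), 4 h against no TNF (green) and 4 h against 30 min (grey). Filled points have an adjusted p under 0.05. JUN, JUNB and ATF3 lie to the right of 0 at both times in both panels, FOS at 4 h lies at −1.81 with control and 0.15 with SIK3 siRNA, and the intervals of FOSL1 and FOSB are the widest.

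The pairs at a fixed time asked how SIK3 siRNA cells stood against control siRNA cells. FOSL2 and JUND were higher with SIK3 siRNA without TNF, at 30 min and at 4 h, by 1.50- to 2.72-fold. FOS was 2.11-fold lower without TNF and 1.84-fold higher at 4 h, JUNB was 1.56- to 1.59-fold lower without TNF and at 30 min, and JUN was 1.39- and 1.55-fold higher without TNF and at 4 h. Without TNF 3 members were called higher and 2 lower, against 18.9 and 19.8% of tested genes, at 30 min 2 and 1 (18.2 and 19.6%), and at 4 h 4 were called, each higher (19.6 and 19.9%). Since so large a share of all genes was called, the member counts here are a description only. The siRNA comparisons and the TNF comparisons share libraries, and their values are not independent. Markers moved with the siRNA too: of 6 epithelial markers, 1 was lower without TNF, 3 were lower at 30 min, and 3 were lower and 1 higher at 4 h (4, 5 and 4 lower with the block), while the mesenchymal marker VIM was 1.79- to 2.42-fold lower at the 3 times. Their part in the siRNA differences was not tested.

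JUND had 17.3 and 20.4 CPM with control and 40.9 and 61.4 CPM with SIK3 siRNA without TNF, a 2.72-fold difference (SE 0.28, adjusted p = 0.00303). After 30 min it had 21.4 and 29.2 against 42.7 and 68.3 CPM, 2.19-fold (SE 0.28, adjusted p = 0.0101), and after 4 h 17.2 and 21.1 against 40.9 and 54.96 CPM, 2.51-fold (SE 0.28, adjusted p = 0.00492). All 6 SIK3 siRNA libraries lay above all 6 control libraries. The 30 min call was lost without control siRNA TNF 30 min replicate 1 (log2 0.90, adjusted p = 0.0933) or SIK3 siRNA TNF 30 min replicate 2 (log2 0.73, adjusted p = 0.0937).

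FOSL2 had 84.5 and 104 CPM with control against 201 and 249 CPM with SIK3 siRNA without TNF, 2.39-fold (SE 0.19, adjusted p = 0.000706). After 30 min the fold was 2.22 (SE 0.19, adjusted p = 0.00121). After 4 h, with 144 and 170.1 CPM in control and 214 and 255 CPM in SIK3 siRNA libraries, it was 1.50 (SE 0.19, adjusted p = 0.036). This last call was lost without control siRNA TNF 4 h replicate 1 or 2 or SIK3 siRNA TNF 4 h replicate 1 or 2 (adjusted p 0.0517 to 0.213), and the 1.49-fold and 1.50-fold within replicates 1 and 2 gave an adjusted p of 7.47e-09 with the block.

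FOS had 38.9 and 38.95 CPM with control against 18.0 and 18.9 CPM with SIK3 siRNA without TNF, a fall of 1.08 on the log2 scale (SE 0.18, adjusted p = 0.00103). At 30 min its groups overlap (63.8 and 88.8 against 57.0 and 77.6 CPM, log2 difference −0.18, 95% interval −0.56 to 0.20). At 4 h the order was the reverse of that without TNF, 11.2 and 10.99 against 20.6 and 20.2 CPM, 1.84-fold higher with SIK3 siRNA (SE 0.18, adjusted p = 0.00423).

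JUN was 1.39-fold higher with SIK3 siRNA without TNF, with 258 and 259 against 196 and 178 CPM (SE 0.08, adjusted p = 0.00155), and 1.55-fold higher at 4 h (SE 0.08, adjusted p = 0.000295). At 30 min it stood at 432 and 402 against 487 and 463 CPM, a difference of −0.19 (95% interval −0.37 to −0.00297, adjusted p = 0.103, or 0.00218 with the block). JUNB was lower with SIK3 siRNA without TNF by 0.64 (SE 0.11, adjusted p = 0.00112) and at 30 min by 0.67 on the log2 scale (SE 0.10, adjusted p = 0.000711). At 4 h JUNB held 51.1 and 57.3 against 58.2 and 56.1 CPM, with a difference of −0.08 (95% interval −0.31 to 0.16).

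ATF3 differed little between the siRNAs, by −0.18, 0.09 and −0.19 on the log2 scale without TNF, at 30 min and at 4 h (adjusted p 0.107, 0.406 and 0.085). With the block the first and last of these passed (adjusted p 0.017 and 0.00758). With the filter on low counts and without the block, FOSB and FOSL1 passed at none of the 3 times (adjusted p from 0.406 to 0.945 by edgeR). Without the filter and without the block, FOSB passed at all 3 times (edgeR, adjusted p 0.00434, 0.0201 and 0.000737). With the block FOSB was lower without TNF and at 30 min and higher at 4 h (adjusted p 0.0016, 0.000325 and 8.58e-05). FOSL1 was then higher without TNF (0.0012) and lower at 30 min (0.0114). With the block 4 members were higher and 4 lower without TNF (29.2 and 29.1% of tested genes), 2 and 4 at 30 min (28.5 and 30.0%), and 5 and 1 at 4 h (29.7 and 29.1%).

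**Figure D5:**
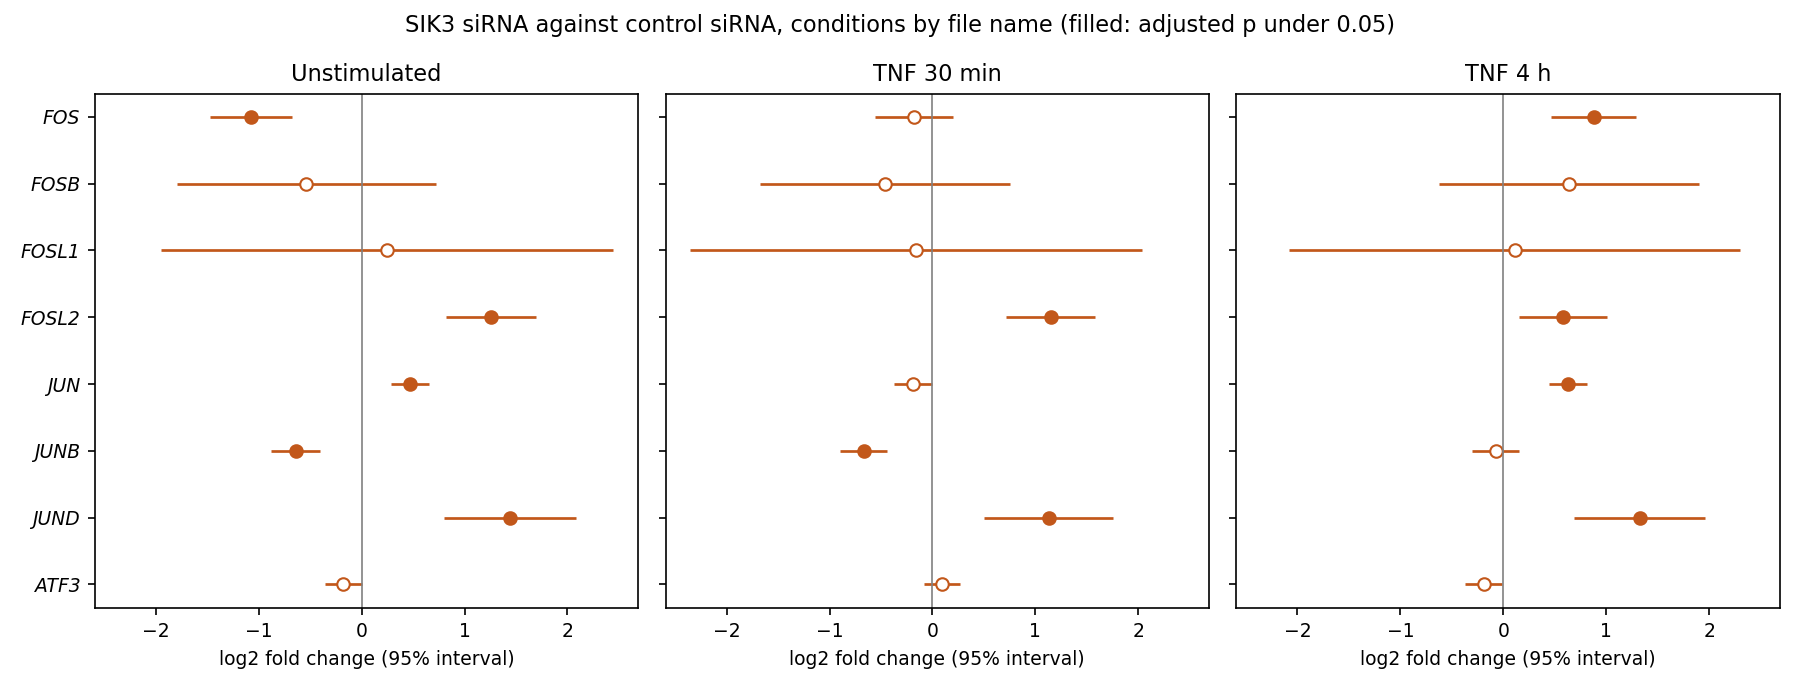
Points are log2 fold changes of SIK3 siRNA over control siRNA with 95% intervals, 1 panel per TNF time, filled where the adjusted p is under 0.05. FOSL2 and JUND lie right of 0 in all 3 panels, while FOS moves from −1.08 without TNF to 0.88 at 4 h.

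Ordered by mean level over the 6 conditions, FOS ran from 76.3 CPM in control siRNA with TNF 30 min, through 67.3, 38.9, 20.4 and 18.5, to 11.1 CPM in control siRNA with TNF 4 h, and only the 2 TNF 30 min conditions at the top overlap as neighbours. JUN ran from 485 CPM in SIK3 siRNA with TNF 4 h to 187 CPM in control siRNA without TNF, and only the upper 2, SIK3 siRNA with TNF 4 h and control siRNA with TNF 30 min, overlap. ATF3 ran from 158 CPM in SIK3 siRNA with TNF 30 min to 62.5 CPM in SIK3 siRNA without TNF, and the control conditions at 30 min and 4 h (149 and 146 CPM) overlap. JUNB had its highest mean, 87.1 CPM, in control siRNA with TNF 30 min, clear of the next 3, which overlap at 54.2 to 57.1 CPM. For JUND and FOSL2 the 3 SIK3 siRNA conditions held the upper places and overlap among themselves, above all 3 control conditions. For FOSL1 and FOSB every neighbour in the order overlaps.

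Whether the TNF response itself differed between the siRNAs was tested as an interaction. At 4 h FOS was called. It was lower than in unstimulated cells with control siRNA and near its unstimulated level with SIK3 siRNA. The unstimulated levels differed too, with 38.9 and 38.95 CPM in control and 18.0 and 18.9 CPM in SIK3 siRNA libraries. The difference of the 2 responses was 1.96 on the log2 scale (SE 0.25, adjusted p = 0.00706). FOS was the 1 member called among 8, against 0.719% of tested genes with a higher and 0.845% with a lower response in SIK3 siRNA cells. In the FOS values the 4 h over unstimulated ratio was 0.287 and 0.282 in the control replicates and 1.14 and 1.07 in the SIK3 siRNA replicates. JUNB and FOSB had interaction values of 0.56 and 1.18 at 4 h (adjusted p 0.127 and 0.728) and FOSL2 one of −0.68 (adjusted p = 0.372). With the block these 3 passed too (adjusted p 0.00277, 8.27e-05 and 2.65e-06), making 3 higher and 1 lower against 6.44 and 5.52% of tested genes. JUN, JUND, FOSL1 and ATF3 had interaction values of 0.16, −0.12, −0.14 and −0.01 at 4 h, called neither with nor without the block.

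At 30 min the interaction gave 0 calls by edgeR among the members and over the whole table (0% higher and 0% lower). An unadjusted p under 0.05 was held by 3 members (JUN, FOS and ATF3) and 317 tested genes. JUN had the smallest p of the 8 genes, with a response 0.66 lower on the log2 scale in SIK3 siRNA cells (SE 0.12, adjusted p = 1.0). JUN rose 2.49- and 2.61-fold in the control replicates and 1.67- and 1.55-fold in the SIK3 siRNA replicates. DESeq2's Wald test called it (adjusted p = 0.033), as did edgeR with the block (1.44e-05), and over the 7 alternatives that keep all libraries the adjusted p ran from 1.44e-05 to 1.0. FOS (0.89 higher, adjusted p = 0.00453) and FOSL1 (−0.50, adjusted p = 0.0224) passed with the block only, in which 0.0779% of tested genes were higher and 0.186% lower.

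Other genes of the pathway were described by lists of known relatives, regulators and targets, with counts and medians in place of a test. Among 17 tested basic leucine zipper relatives, 5 rose and 12 did not pass at 4 h with control siRNA (5.53% of all tested genes were higher and 3.46% lower), with a list median of 0.00 on the log2 scale against −0.03 over all tested genes. With the block 7 were higher and 5 lower (11.3 and 12.2% of tested genes). MAFF, a small MAF protein, rose 3.08-fold from 54.2 and 52.5 to 172 and 157 CPM (adjusted p = 1.78e-05), CEBPD 2.44-fold (adjusted p = 0.000191), BATF2 2.68-fold (adjusted p = 0.0123) and CREB1 1.38-fold (adjusted p = 0.0153). BATF2 was at low levels, 1.06 and 0.990 CPM without TNF and 3.34 and 2.13 CPM at 4 h. With SIK3 siRNA 3 rose at 4 h, MAFF 3.02-fold, CEBPD 1.47-fold and CREB1 1.38-fold (3.65% of tested genes were higher). The block also gave 3, beside 12.5% of tested genes higher. Without TNF 9 of the 17 were higher and 3 lower with SIK3 siRNA than with control, or 11 and 4 with the block (18.9 and 19.8% of tested genes without it, 29.2 and 29.1% with it). ATF2, which pairs with JUN, was 2.59-fold higher (108 and 97.3 against 41.3 and 38.03 CPM, adjusted p = 7.84e-06), ATF4 1.78-fold higher, MAFF 2.50-fold lower and CREB1 1.83-fold lower.

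Of 21 genes of the JNK, p38 and ERK cascades, 3 rose and 18 did not pass at 4 h with control siRNA (list median 0.00), against 5.53% of tested genes higher and 3.46% lower. With the block 5 were higher and 1 lower (11.3 and 12.2% of tested genes). MAP3K8, a kinase upstream of ERK, was the 1 member called at 30 min, beside 0.27% of tested genes higher, when it rose 1.93-fold (adjusted p = 0.0221). At 4 h it was 4.04-fold higher, 24.3 and 23.6 against 5.76 and 6.08 CPM (adjusted p = 1.81e-05), and MAP2K3, a p38 activator, 1.79-fold (adjusted p = 0.00352). Between the siRNAs without TNF 10 of the 21 were higher and 4 lower with SIK3 siRNA, beside 18.9 and 19.8% of tested genes, and with the block 12 and 5, beside 29.2 and 29.1%. MAPK9, which encodes the kinase JNK2, held 43.4 and 38.2 CPM with control and 9.49 and 9.05 CPM with SIK3 siRNA, 4.40-fold lower (adjusted p = 1.39e-06). MAPK9 was also 3.81-fold lower at 30 min and 2.92-fold lower at 4 h. MAPK3, which encodes ERK1, was 4.76-fold higher without TNF (14.5 and 16.1 against 2.96 and 3.46 CPM).

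Of 6 tested genes for SRF and its partners, which drive immediate early promoters, 0 passed by edgeR in any of the TNF comparisons. In each, 0 or 1 member had an unadjusted p under 0.05. Over all tested genes the same comparisons called 0.138 to 6.18% higher and 0.012 to 4.92% lower. With the block 3 of the 6 were higher and 1 lower at 4 h with control siRNA (11.3 and 12.2% of tested genes). ELK3, which held an adjusted p of 0.254 without the block, had 1.39e-08 with it. The block called 2 higher at 4 h with SIK3 siRNA (12.5% of tested genes). SRF itself was higher with SIK3 siRNA without TNF (1.50-fold, adjusted p = 0.0416) and at 4 h (1.60-fold, adjusted p = 0.0226). The 11 genes for turnover of AP-1 proteins and AU-rich mRNAs likewise gave 0 calls with TNF by edgeR, with 0 or 1 at an unadjusted p under 0.05. With the block 3 were higher at 30 min and 1 at 4 h with control siRNA (1.81 and 11.3% of tested genes). Between these times 3 were lower (15.3%). With SIK3 siRNA the block called 1 higher at 30 min, beside 1.67% of tested genes. At 4 h it called 2 higher and 1 lower (12.5 and 9.36%), and between the times 3 higher and 2 lower (14.8 and 13.0%). Among them ZFP36, whose protein destroys AU-rich mRNAs, went from 157 and 440.0 to 1101 and 2724 CPM at 30 min with control siRNA, 6.41-fold with an adjusted p of 0.721, or 6.84e-15 with the block. Without TNF 1 of the 11 was higher and 3 were lower with SIK3 siRNA than with control, beside 18.9 and 19.8% of tested genes. With the block 5 were higher and 4 lower, beside 29.2 and 29.1%. ZFP36L2, a relative of ZFP36, was the 1 called higher without the block (2.17-fold, adjusted p = 0.0192). ELAVL1, whose protein stabilises such mRNAs, was 1.83-fold lower (adjusted p = 5.6e-05), and ITCH, a ubiquitin ligase for JUN and JUNB, 1.39-fold lower (adjusted p = 0.00161).

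Of 20 tested AP-1 target genes, 7 were higher and 2 lower at 4 h with control siRNA (5.53 and 3.46% of tested genes), with a list median of 0.45 on the log2 scale against −0.03 over all genes. With the block 10 were higher and 2 lower (11.3 and 12.2% of tested genes). CXCL8, which encodes a neutrophil attractant, was the 1 target called at 30 min (3.74-fold, adjusted p = 0.0206), beside 0.27% of tested genes higher. At 4 h it reached 262 and 171 CPM from 25.1 and 16.97 CPM, 10.3-fold (adjusted p = 5.98e-05). The urokinase gene PLAU rose 2.65-fold and the cytokine gene LIF 2.05-fold at 4 h. With SIK3 siRNA 7 were higher and 1 lower at 4 h (list median 0.38), beside 3.65 and 0.767% of tested genes, and 11 and 3 with the block, beside 12.5 and 9.36%. CXCL8 rose 6.83-fold and PLAU 2.30-fold. Without TNF 9 of the 20 were higher and 2 lower with SIK3 siRNA than with control (list median 0.62, against 0.01 over all genes), beside 18.9 and 19.8% of tested genes. With the block 10 were higher and 5 lower, beside 29.2 and 29.1%. The genes called without the block include HMOX1 (4.71-fold higher), IL11 (5.81-fold), AREG (2.48-fold) and VIM, 2.41-fold lower. Many of these genes also have other regulators, and no count here tells which factor acts on them.

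Across the 12 libraries the members that tracked each other most closely were JUNB and ATF3 (Pearson r of log2 CPM 0.92), FOSL2 and JUND (0.84), JUN and ATF3 (0.80), FOS and FOSB (0.77) and JUN and JUNB (0.76). FOSL2 and JUND share the siRNA difference and the others the TNF times, and all points share libraries and depth, so these are descriptions. Among 13639 tested genes of sufficient level, those most like JUNB were ETS2, NFKBIZ and IER3 (r 0.96, 0.96 and 0.94), and most like FOSB EGR1 and PRDM10 (0.94 and 0.91). FOS was closest to SOX21 and GCLC (0.95 and 0.93), and ATF3 to AC020916.1, ELF3 and CXCL3 (0.95, 0.95 and 0.94). FOSL2 was closest to CRISPLD2, RIPK1 and CTBP2 (0.99, 0.98 and 0.98) and JUND to CDR2L, ADCY9 and LMTK3 (each 0.99). JUN was closest to AC013394.1, AC005674.2 and AL021578.1 (0.93, 0.92 and 0.91), all at low levels of 2.34 to 6.16 CPM on average. FOSL1 was closest to TFE3, ATXN2L and MT-CO1 (each 0.99), a likeness taken over libraries that differ mostly by replicate number for FOSL1.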

How the data were processed

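The authors deposited unnormalized integer counts, 1 table per library with 60669 identifiers and 4 summary entries that were left out of library sizes. STAR 2.05b, edgeR and GRCh38 are named in the submitters' processing notes, RNeasy extraction with DNase I and ScriptSeq libraries per the labels' protocols. The annotation release and strand setting are not given in the sources used here. Symbols, positions and exon lengths came from GENCODE 29, and 3742 identifiers had no name.

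Conditions were taken from file-name words. Counts were scaled by TMM and fitted with edgeR 4.0.16 in R 4.3.3 (filterByExpr, minimum count 10, 6 residual degrees of freedom, Benjamini-Hochberg threshold 0.05) in 9 pairwise comparisons and 2 interactions. The fit was tested on simulated data. Replicates differed beyond counting error (chi-square per degree of freedom 16.5 to 33.5). Deviations of same-numbered replicates correlated across genes in all 15 pairs of conditions (0.350 to 0.530, median 0.421), a pairing taken from the data and the numbers in the titles, so a fit with that number as a block is given where it changes a member's call, and as counts for the lists described. Alternatives used DESeq2 1.42.0, other scaling, filters, omissions and the titles. Figures were made in Python 3.11.15 with matplotlib 3.10.9. Every comparison names all 8 genes, up to 4 genes of a list with the smallest p and, by correlation, the 3 genes most like each member; a few genes that this rule names are not reported here. The members and lists were chosen with earlier results of these data known.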

Additional observations from a re-analysis of the deposited data

Results flagged for a closer look

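The FOS response to TNF at 4 h differed between the siRNAs by the test of the difference itself. It was 1.96 higher on the log2 scale with SIK3 siRNA than with control siRNA (SE 0.25, edgeR quasi-likelihood, adjusted p = 0.00706). FOS went from 38.9 and 38.95 to 11.2 and 10.99 CPM with control and from 18.0 and 18.9 to 20.6 and 20.2 CPM with SIK3 siRNA, so the arms differ both without TNF and at 4 h. The SIK3 siRNA libraries at 4 h also hold the largest share of reads in no annotated exon (16.5 and 17.1%), whose part in this difference was not tested.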

How the results depend on the processing

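Over 1032 refits of single members, 950 kept their side of the threshold, 33 lost a call, 49 gained one and 0 called values reversed. The 950 include 75 values called in neither fit whose sign changed. With control siRNA the replicate block moved the count of members called from 3 to 6 (30 min), 5 to 7 (4 h) and 4 to 7 (4 h against 30 min). With SIK3 siRNA it moved it from 4 to 6 (30 min), 3 to 5 (4 h) and 2 to 6 (4 h against 30 min). Between the siRNAs it moved it from 5 to 8 without TNF, 3 to 6 at 30 min and 4 to 6 at 4 h. For the interactions it moved it from 0 to 3 at 30 min and 1 to 4 at 4 h. Each of the 30 calls it changed was a gain, and it changed no other call. Without the filter on low counts 5 members were called at 30 min with control siRNA, where 88 of 35650 genes were higher and 13 lower. In the 4 h interaction that setting called 3 (234 genes higher and 271 lower). Over 88 member values it gained 14 calls, of FOS, FOSB, FOSL1 and FOSL2, and lost 1. Among the gains were FOSB at 30 min with control siRNA and with SIK3 siRNA (edgeR, adjusted p 3.82e-19 and 7.69e-21). FOSL1 at 4 h with control siRNA was another (0.00145). DESeq2's Wald test called 1 in the 30 min interaction, where 1 of 16695 genes was higher and 5 were lower. With only the libraries compared, 0 were called at 30 min and 1 between 30 min and 4 h with SIK3 siRNA, where fewer libraries estimate the spread. Over all genes 0 of 15465 were called in the first, and 387 of 15652 were higher and 70 lower in the second. Leaving out 1 library gave 2 to 3 members at 30 min and 1 to 1 between 30 min and 4 h with SIK3 siRNA, the remaining replicate being assumed to vary like the others. Conditions from the titles compare other libraries under the same words. They gave 5 members at 30 min with control siRNA, where 923 of 16695 tested genes were higher and 578 lower. At 30 min with SIK3 siRNA they gave 7, where 3283 were higher and 3404 lower. Between the siRNAs they gave 3 without TNF, 5 at 30 min and 2 at 4 h (45, 3452 and 825 genes higher, 4, 3644 and 357 lower). In the 30 min and 4 h interactions they gave 3 and 4 (2164 and 381 genes higher, 2596 and 195 lower). These member counts are a description only. SIK3 itself differed by −0.35 by title, −1.29 by file name and −1.20 with library totals, and within replicate numbers its exact permutation p was 0.005. The causes of these shifts were not tested. With 2 libraries per condition, wide intervals for FOSL1 and FOSB limit what can be seen without the block.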
